A study of Mus musculus with 8 samples.

Results

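The genes that carry a cell through G2 and mitosis were followed as 1 group of 48 genes in the embryonic mouse retina, with and without the Hedgehog transducer Smo. The genes were chosen by symbol, as mitotic cyclins and kinases, kinetochore, spindle, checkpoint and cytokinesis genes, and every symbol had exactly 1 row among the 57180 genes of the count table. The assay was 3′-Tag-Seq on RNA of isolated retinas. It reads transcripts at their 3′ ends, and counts therefore do not scale with gene length. The control group held 4 libraries of genotype Smo CKO/CKO, which carry the conditional allele without Cre, and the Rax-SmoCKO group held 4 libraries of genotype Rax-Cre; Smo CKO/CKO. All retinas are of embryonic day 13 in the series design and come from lines kept on a CD1 background. The cell type labels instead give day 13 for control replicate 1 and 1 day more for each further sample, up to day 20. The study describes the retinas of both groups as of a single embryonic age, with littermates as controls, and they were treated so here, whereas with the labelled days age and genotype could not be told apart. The Rax-Cre line is a BAC transgene that is active in the optic vesicle and in all tissues that arise from it, including pigment epithelium and optic stalk, and no control carries it, so that an effect of the transgene and an effect of Smo loss cannot be told apart.

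Retinal progenitors divide at the apical surface of the neuroepithelium, and in a growing retina nearly all dividing cells are progenitors. Transcripts of G2 and mitosis build up late in the cycle under Foxm1 and the complex of Mybl2 with MuvB proteins. The kinase Cdk1 with its A and B cyclins then drives entry into mitosis, and the anaphase-promoting complex, a ubiquitin ligase, ends it by marking cyclin B and securin for destruction. In RNA from a whole tissue, fewer dividing cells and less RNA per dividing cell cannot be told apart.

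Libraries held 3017480 to 4615667 counts. No source used here states whether each library is 1 embryo or a pool, and the tests rest on the spread between these libraries, which may in part be technical. Smo itself had 16.4 to 23.9 CPM (counts relative to the TMM-adjusted library size) in control and 2.86 to 4.97 in Rax-SmoCKO, and its target Gli1 had 11.8 to 28.1 and 0.716 to 4.10. No source used here gives the position of the 3′ tags of Smo relative to the deleted part, so this is no check of the deletion. Markers of retinal progenitors, 12 genes such as Pax6 and Hes1, were all detected and summed to 7080.0 to 7588 CPM in control and 6779 to 7535 in Rax-SmoCKO. Some libraries stand apart. Control replicate 2 held 15730 CPM of 15 lens genes against 6.39 to 374.5 in the other 7 libraries, Rax-SmoCKO replicate 2 held the most red blood cell RNA (3814 CPM against 913.0 to 1708), and Rax-SmoCKO replicates 2 and 3 held 1131 and 893 Y-linked counts against at most 1 elsewhere. Those replicates had 2 and 0 counts of Xist, the RNA of the inactive X chromosome, against 1389 to 3106 elsewhere, so each library held RNA of 1 sex and the Rax-SmoCKO libraries came from more than 1 animal.

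As a group the G2 and mitosis genes lay lower in Rax-SmoCKO, by a small margin that every library shared. Their summed level was 11070, 10580, 11030 and 10650 CPM in control replicates 1 to 4 and 10140, 9908, 9824 and 9063 CPM in Rax-SmoCKO replicates 1 to 4. The highest Rax-SmoCKO library was below the lowest control, and the means differed by -10.1% (10830 ± 256.4 against 9735 ± 467.6 CPM, SD, n = 4 each). All 48 genes passed the filter of at least 5 counts in at least 4 libraries. In edgeR's quasi-likelihood test 47 had a log2 fold change below 0, beside 50.4% of the 14730 genes tested, and the exception was Mybl2. The median log2 fold change was -0.18, against -0.0018 over all tested genes.

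With the filter on low counts, no single member passed an adjusted p of 0.05, and without it 1 member, Nuf2, did (adjusted p = 0.0136 in edgeR). The share called among the 27242 genes of the fit without the filter was not counted. The log2 fold change of Nuf2 was -0.39 in both fits. Its unadjusted p in edgeR was 0.00189 with the filter and 9.32e-05 without it. With the filter 0 of the 48 were called in edgeR, beside 0.095% of all tested genes (0.0611% lower and 0.0339% higher), and 0 were called in DESeq2 (background 0.388%) and in limma-voom (background 0.109%). The smallest adjusted p in edgeR was 0.234, for the kinetochore gene Nuf2 and the kinase gene Aurkb. Genes whose unadjusted p was under 0.05 in edgeR are called nominally lower or nominally higher. By that measure 26 members were lower and 0 higher, that is 54.2% of the members lower beside a background of 4.68% of all tested genes lower and 4.8% higher. Without control replicate 1, which held the highest value of 20 members, 14 members were nominally lower. The groups did not overlap in 16 members, all with Rax-SmoCKO lower (33.3%, against 3.03% of all tested genes lower and 2.66% higher). In 13 more, 3 of the 4 Rax-SmoCKO libraries lay below every control. The share of all tested genes with that pattern was not counted. Differences were small throughout, from -24.3% to 13.7% of the control mean. The members were put on the list with earlier results of these libraries known, so these shares describe the list and are not independent evidence.

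**Figure D1:**
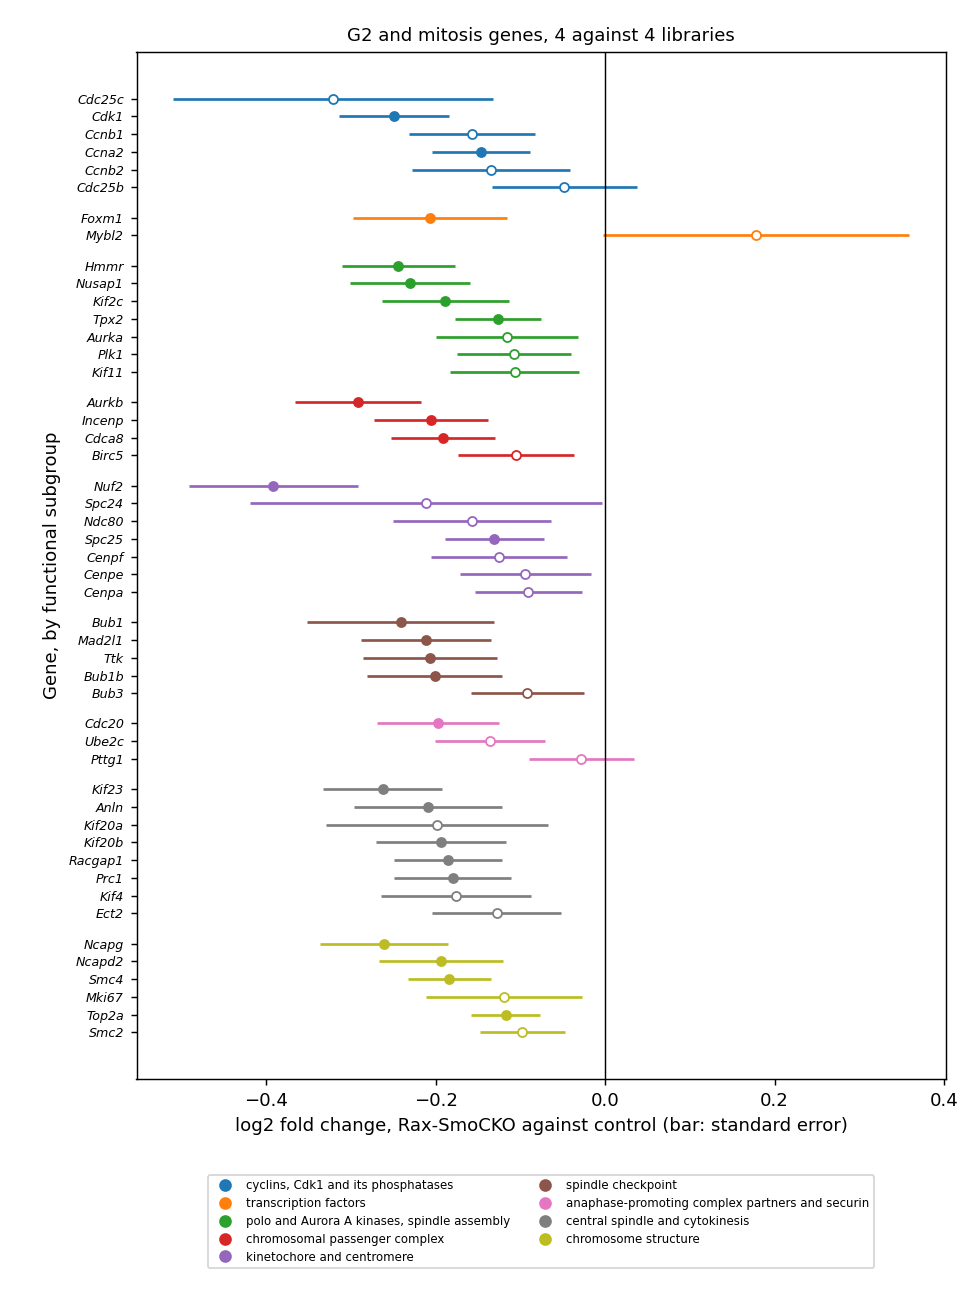
Log2 fold change (horizontal axis, Rax-SmoCKO against control, bar 1 standard error, SE) of each of the 48 genes, grouped and coloured by functional subgroup. Filled points have an unadjusted p under 0.05. All points but Mybl2 lie left of 0, from -0.39 for Nuf2 to -0.028 for Pttg1.

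Cdk1 was lower in every Rax-SmoCKO library, and its cyclins lay on the same side by smaller margins. Cdk1, the kinase of mitotic entry (chromosome 10 of GRCm38, 69335146 to 69352938), had 298, 306, 281 and 318 CPM in control replicates 1 to 4 and 264, 254, 263 and 229 CPM in Rax-SmoCKO replicates 1 to 4. The groups did not overlap, and the log2 fold change was -0.25 with a standard error (SE) of 0.065 and an adjusted p of 0.244 in edgeR. Ccna2, which encodes cyclin A2 of S phase and G2, had 247, 237, 224 and 239 CPM in control and 210.4, 212, 223 and 210.0 CPM in Rax-SmoCKO, again without overlap, with a log2 fold change of -0.15 (SE 0.058, adjusted p = 0.457). Exosc9 lies over its 3′ end on the opposite strand. The B cyclins, which activate Cdk1 at mitotic entry, overlapped between groups: Ccnb1 had a log2 fold change of -0.16 (SE 0.075) and Ccnb2 one of -0.13 (SE 0.093). Each has an annotated pseudogene copy, with which it may share reads. Of the phosphatases that remove the inhibitory phosphates of Cdk1, Cdc25c was the least abundant gene of the subgroup, at 13.5 to 18.3 CPM in control and 10.7 to 18.0 CPM in Rax-SmoCKO. Its value of -0.32 had an SE of 0.19, and Rax-SmoCKO replicates 3 and 4 lay within the control range. Cdc25b differed by less than its error, at -0.048 (SE 0.086). The 6 genes summed to 813.2 to 883.0 CPM in control and 701.0 to 792.5 CPM in Rax-SmoCKO. Of the 6, 2 were nominally lower, beside 4.68% of all tested genes.

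The transcription factors of the mitotic programme lay on opposite sides of 0. Foxm1, a forkhead factor that switches on genes of G2 and mitosis, had 61.7, 49.0, 58.8 and 62.6 CPM in control and 50.8, 49.5, 54.2 and 45.7 CPM in Rax-SmoCKO. Control replicate 2 lay within the Rax-SmoCKO range, and the log2 fold change was -0.21 (SE 0.091, adjusted p = 0.506). Foxm1 overlaps Tex52 and Gm44596 on its own strand at its 3′ end. Mybl2, which encodes B-Myb, had 10.3, 11.4, 8.18 and 12.3 CPM in control and 12.4, 9.72, 13.2 and 12.7 CPM in Rax-SmoCKO, which gives 0.18 on the log2 scale (SE 0.18). It was the least abundant member, at 42.4 counts per library on average, and the difference did not exceed the spread between libraries.

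Many promoters of these genes hold a short element that the choice of genes did not use. The cell cycle homology region is a site, with the core letters TTTGAA, through which MuvB complexes hold late cell cycle genes down in resting cells and raise them in G2 and mitosis, and CCAAT boxes that bind NF-Y often lie beside it. RefSeq windows on GRCm38.p6, from 250 bases before the gene start to 50 after, were found for 39 of the 48 members. On either strand TTTGAA was present in 29 of the 39, or 74.4%, against 20.2% of 27025 genes with a window. Within 50 bases of the start, a limit set after the positions were seen, 26 members (66.7%) held it against 5.72% of all genes. Of 63 other mitosis genes with a window, from a list described below, 44.4% held the hexamer and 33.3% held it within 50 bases. CCAAT was found in 74.4% of members, 65.1% of these 63 genes, 63.2% of DNA replication genes and 41.1% of all genes. At least 2 copies were found in 19 members (48.7%, against 13.3% of all genes). Among 38 DNA replication genes with a window the hexamer was no more common than over all genes, at 13.2%, whereas 18.4% held TTTCGCGC, a form of the E2F site, against 2.56% of the members and 0.374% of all genes. TTTGGCGC and TTTCCCGC, other forms of the E2F site, were each found in 1 member, and TTCGAA, a variant of the hexamer, in 4 (10.3%, against 1.8% of all genes).
The 4 members with the smallest p among those holding the hexamer are shown, to give the arrangement of the element and of CCAAT near the start. Each runs 5′ to 3′ on the gene's strand, from 220 bases before the RefSeq start to 30 from it, with TTTGAA and CCAAT (or ATTGG, its other strand) in capitals.
Cdk1 (chr10:69352883-69353132, minus strand): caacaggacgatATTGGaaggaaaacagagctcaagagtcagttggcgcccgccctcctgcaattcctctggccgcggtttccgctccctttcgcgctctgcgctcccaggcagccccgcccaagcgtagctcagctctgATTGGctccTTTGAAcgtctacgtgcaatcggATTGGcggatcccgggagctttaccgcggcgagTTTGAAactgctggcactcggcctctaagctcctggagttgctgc
Kif23 (chr9:61946770-61947019, minus strand): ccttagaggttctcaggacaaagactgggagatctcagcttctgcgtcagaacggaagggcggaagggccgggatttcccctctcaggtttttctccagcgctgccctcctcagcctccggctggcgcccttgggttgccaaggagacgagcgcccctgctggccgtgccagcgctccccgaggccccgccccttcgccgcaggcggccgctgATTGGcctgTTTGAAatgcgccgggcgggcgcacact
Hmmr (chr11:40733408-40733657, minus strand): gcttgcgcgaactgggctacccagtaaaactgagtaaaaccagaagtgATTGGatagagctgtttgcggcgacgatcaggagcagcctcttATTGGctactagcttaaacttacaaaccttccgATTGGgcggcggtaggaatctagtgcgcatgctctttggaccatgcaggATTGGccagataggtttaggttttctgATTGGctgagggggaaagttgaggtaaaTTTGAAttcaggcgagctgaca
Ncapg (chr5:45669705-45669954, plus strand): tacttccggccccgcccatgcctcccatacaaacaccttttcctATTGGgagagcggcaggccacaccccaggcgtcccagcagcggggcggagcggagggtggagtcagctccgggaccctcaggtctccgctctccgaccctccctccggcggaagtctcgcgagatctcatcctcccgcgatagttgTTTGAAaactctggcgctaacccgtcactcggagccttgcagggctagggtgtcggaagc
Counted from the start as 0, the hexamer begins at -71 and -15 in Cdk1, 2 in Kif23, 8 in Hmmr and -30 in Ncapg. Hmmr has 5 CCAAT letters before it and Cdk1 has 3, whereas Kif23 and Ncapg have 1 each. A match says that the letters are there and not that a factor binds. Members with the hexamer had a median log2 fold change of -0.18 (29 genes) and members with a window that lacks it one of -0.13 (10 genes). For CCAAT the medians lay the other way round, at -0.14 with it (29 genes) and -0.19 without it (10 genes). Both splits are a description without a test.

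**Figure D2:**
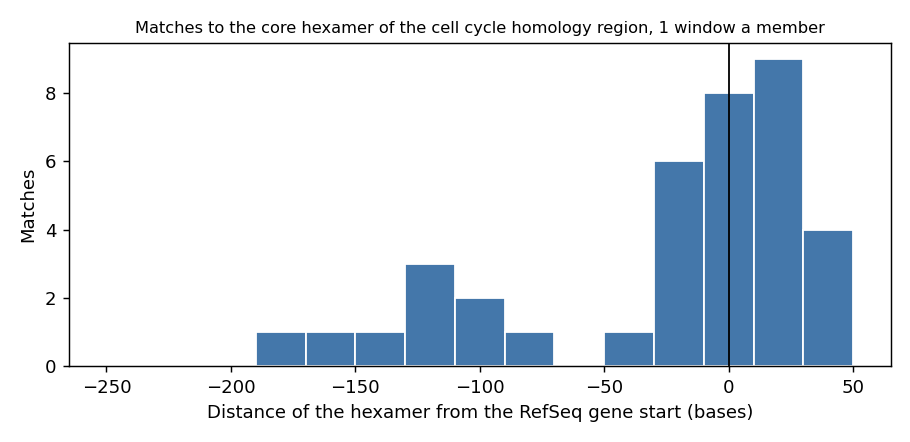
Number of matches (vertical axis) to the core hexamer of the cell cycle homology region by distance from the RefSeq gene start in bases (horizontal axis), in 1 window for each of 39 members. Most matches lie within 50 bases of the start, where 26 members hold at least 1.

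Of the genes that build the spindle, Hmmr and Nusap1 had the largest differences and Kif11, Plk1 and Aurka the smallest. Hmmr, which encodes a microtubule-binding protein of the spindle poles, had 159.9, 147, 158 and 149 CPM in control and 125, 131, 141 and 121 CPM in Rax-SmoCKO. The groups did not overlap, and the log2 fold change was -0.24 (SE 0.067, adjusted p = 0.261 in edgeR). Nusap1, which bundles spindle microtubules, had 374, 349, 381 and 402 CPM in control and 352, 332, 315 and 285 CPM in Rax-SmoCKO. Only Rax-SmoCKO replicate 1 reached the control range, and the log2 fold change was -0.23 (SE 0.070). Kif2c, a kinesin that takes microtubule ends apart, had 63.3, 57.1, 56.2 and 57.8 CPM in control and 54.2, 51.2, 53.1 and 46.3 CPM in Rax-SmoCKO without overlap (-0.19 on the log2 scale, SE 0.075). Tpx2, which activates Aurora A on the spindle, had 324, 334, 341 and 319 CPM in control and 310.2, 296, 301 and 299.7 CPM in Rax-SmoCKO, also without overlap (-0.13, SE 0.051). The other members of this subgroup, the kinase genes Plk1 (-0.11, SE 0.067) and Aurka (-0.12, SE 0.084) and the motor Kif11 that pushes spindle poles apart (-0.11, SE 0.076), overlapped between groups. For Plk1 no Rax-SmoCKO library lay below all controls.

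The chromosomal passenger complex, which corrects faulty spindle attachments and later directs cytokinesis, was the subgroup with the largest share of members without overlap, 3 of 4. Over all tested genes the share without overlap and lower in Rax-SmoCKO was 3.03%. Aurkb, its kinase (chromosome 11, 69045647 to 69051664), had 72.6, 77.5, 71.6 and 77.8 CPM in control and 63.0, 62.0, 53.7 and 66.3 CPM in Rax-SmoCKO, which gives -0.29 on the log2 scale (SE 0.075, adjusted p = 0.234). Incenp, the scaffold, had 127, 142, 147 and 139 CPM in control and 116, 126, 114 and 125 CPM in Rax-SmoCKO (-0.21, SE 0.067). Cdca8, which encodes borealin, had 243, 246, 236 and 239 CPM in control and 209, 215, 225 and 194 CPM in Rax-SmoCKO (-0.19, SE 0.061). In these genes the lowest control exceeded the highest Rax-SmoCKO library. Birc5, which encodes the fourth subunit, survivin, had a value of -0.11 (SE 0.069) and overlapped. The sum of the 4 genes was 651.7 to 695.5 CPM in control and 565.0 to 601.7 CPM in Rax-SmoCKO.

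At the kinetochore, where chromosomes bind spindle microtubules, Nuf2 had the lowest value of all 48 members, and Cenpa and Cenpe were among those nearest to 0. Nuf2 (chromosome 1, 169497934 to 169531464) had 71.3, 57.3, 59.8 and 53.1 CPM in control and 44.6, 51.8, 42.4 and 44.0 CPM in Rax-SmoCKO, without overlap. Its log2 fold change of -0.39 (SE 0.10, adjusted p = 0.234 in edgeR) ran from -0.48 to -0.31 over all alternative settings, and the gene passed over all genes in the fit with no filter on low counts alone. Its partners in the Ndc80 complex, the 4-part rod that holds the microtubule, were Spc25 with 266, 249, 264 and 266 CPM in control and 225, 234, 249.5 and 246 CPM in Rax-SmoCKO (-0.13, SE 0.059), Ndc80 (-0.16, SE 0.093) and Spc24 (-0.21, SE 0.21). Rax-SmoCKO replicate 3 alone overlapped the controls for Spc25, in which the other replicates lay below every control. Spc24 varied widely within both groups, from 56.8 to 100.8 CPM in control and from 48.7 to 88.2 in Rax-SmoCKO. Cenpa, the histone H3 variant that marks the centromere, the kinetochore motor Cenpe and the large outer protein Cenpf had values of -0.091 (SE 0.063), -0.094 (SE 0.077) and -0.13 (SE 0.080).

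Of the 5 checkpoint genes, whose products delay anaphase until every kinetochore is attached, 4 were nominally lower, although the groups were separate in 1. Over all tested genes 4.68% were nominally lower and 3.03% were lower without overlap. Mad2l1, which encodes the Mad2 inhibitor of Cdc20, had 184, 154, 158 and 174 CPM in control and 158, 140.2, 135 and 146 CPM in Rax-SmoCKO (-0.21, SE 0.076, adjusted p = 0.42). Ttk, the kinase that starts the checkpoint signal, had 174, 150.3, 179 and 161 CPM in control and 134, 160.2, 146 and 135 CPM in Rax-SmoCKO (-0.21, SE 0.079). In each of these genes a single Rax-SmoCKO library overlapped the control range, replicate 1 for Mad2l1 and replicate 2 for Ttk. Bub1b, which encodes BubR1, had 106, 86.8, 88.9 and 86.2 CPM in control and 77.5, 74.5, 85.5 and 82.0 CPM in Rax-SmoCKO and did not overlap (-0.20, SE 0.080). Bub1, a kinase of the kinetochore, had 88.2, 65.2, 78.5 and 74.1 CPM in control and 76.6, 65.7, 59.3 and 55.0 CPM in Rax-SmoCKO (-0.24, SE 0.11), with Rax-SmoCKO replicates 1 and 2 inside the control range. Bub3, their shared partner, had a value of -0.092 (SE 0.066). At its 3′ end it overlaps Fgfr2 on the opposite strand. No source used here states that counting used strand, and such pairs may share reads.

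Of the 3 genes for securin and for partners of the anaphase-promoting complex, 1 was nominally lower, beside 4.68% of all tested genes. In 1 of the 3 the difference from control was less than its error. Cdc20, which activates the anaphase-promoting complex, had 147, 133, 129 and 143 CPM in control and 116, 128, 126 and 109 CPM in Rax-SmoCKO, without overlap (-0.20, SE 0.072, adjusted p = 0.424). Ube2c, the conjugating enzyme of the complex, had 202, 209, 197 and 216 CPM in control and 183, 198, 196 and 173 CPM in Rax-SmoCKO (-0.14, SE 0.065), and 3 of the 4 Rax-SmoCKO libraries lay below every control. Pttg1, which encodes securin, had a value of -0.028 with an SE of 0.062, and its Rax-SmoCKO libraries all lay within the control range of 97.5 to 108.7 CPM. Cdc20 overlaps Elovl1 and Ube2c overlaps Tnnc2 on the opposite strand at the 3′ end.

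**Figure D3:**
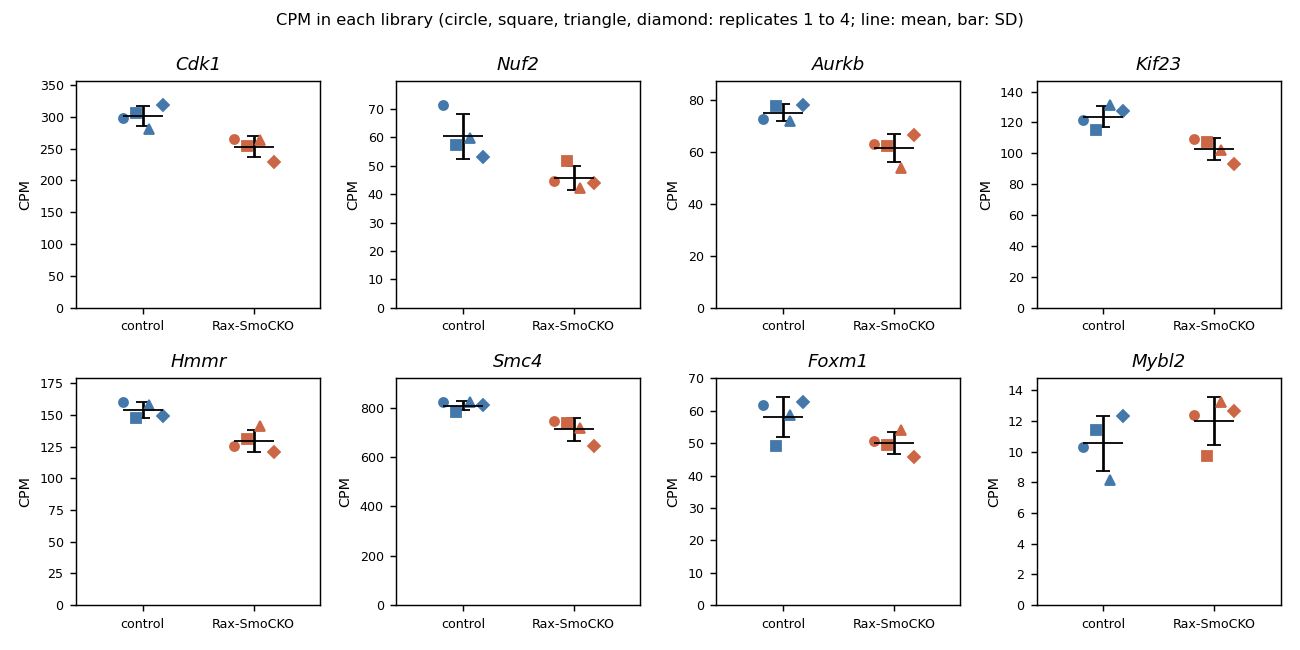
CPM (vertical axes, from 0) of 8 members in the 4 control and 4 Rax-SmoCKO libraries, with the mean and SD of each group. In Cdk1, Nuf2, Aurkb, Kif23, Hmmr and Smc4 every Rax-SmoCKO library lies below every control, whereas in Foxm1 and Mybl2 the groups overlap.

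All 8 genes of the central spindle and of cytokinesis had values below 0. Of the 8, 5 were nominally lower, beside 4.68% of all tested genes. Kif23, the kinesin of the centralspindlin complex, had 122, 115, 131 and 127 CPM in control and 109, 107, 102 and 93.3 CPM in Rax-SmoCKO, without overlap (-0.26, SE 0.070, adjusted p = 0.245 in edgeR). Its partner Racgap1, a GTPase-activating protein, had 226, 242, 237 and 247 CPM in control and 205, 206, 228 and 198 CPM in Rax-SmoCKO, with replicate 3 alone above the lowest control (-0.19, SE 0.063). Prc1, which bundles the antiparallel microtubules of the midzone, had 268, 261, 269 and 287 CPM in control and 256, 237, 252 and 213 CPM in Rax-SmoCKO, without overlap (-0.18, SE 0.069). Rccd1 overlaps its 3′ end on the opposite strand. Kif20b, a kinesin of the midbody, had 175, 146, 178 and 165 CPM in control and 159, 141, 144 and 137 CPM in Rax-SmoCKO (-0.19, SE 0.077). Anln, which encodes the contractile ring scaffold anillin, had 93.2, 88.0, 103 and 83.7 CPM in control and 86.6, 81.4, 81.5 and 67.7 CPM in Rax-SmoCKO (-0.21, SE 0.087). In both of these genes Rax-SmoCKO replicate 1 lay within the control range and the other 3 libraries below it. The chromokinesin Kif4, which has an annotated pseudogene copy, did not overlap but had a value of -0.18 with an SE of 0.088. Ect2, an exchange factor that acts at the cleavage furrow, had one of -0.13 (SE 0.076), and Kif20a, which brings the passenger complex to the midzone and overlaps Cdc23, one of -0.20 (SE 0.13).

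Of the genes of chromosome structure 4 of 6 were nominally lower, beside 4.68% of all tested genes. Top2a and Smc4 were the most abundant members and had the smallest errors. Smc4, an ATPase of condensin, the complex that compacts chromosomes, had 821, 782, 821 and 809 CPM in control and 745, 737, 719 and 645 CPM in Rax-SmoCKO. The groups did not overlap, and the log2 fold change was -0.18 (SE 0.049, adjusted p = 0.244 in edgeR). Among the other condensin genes, Ncapg had 154, 149, 157 and 147 CPM in control and 144, 116, 128 and 118 CPM in Rax-SmoCKO, without overlap (-0.26, SE 0.076), though Lcorl lies over its 3′ end on the opposite strand. Ncapd2 had 202, 192, 196 and 186 CPM in control and 190.2, 173, 156 and 158 CPM in Rax-SmoCKO, where only replicate 1 reached the control range (-0.19, SE 0.073). Smc2, the partner of Smc4, had a value of -0.098 (SE 0.050). Top2a, the topoisomerase that untangles sister chromatids, had 1741, 1687, 1883 and 1667 CPM in control and 1674, 1628, 1586 and 1543 CPM in Rax-SmoCKO. Its difference was small and precise at -0.12 (SE 0.041), with Rax-SmoCKO replicate 1 inside the control range. Mki67, the proliferation marker Ki-67, which coats mitotic chromosomes, had a value of -0.12 (SE 0.092), and its libraries ranged from 383.5 to 462.3 CPM in control and from 319.0 to 439.5 in Rax-SmoCKO.

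The libraries of Rax-SmoCKO were not equally low. Replicate 4 held the lowest value of the 8 libraries in 30 of the 48 members, and the median difference of the members from the control mean on the log2(CPM + 1) scale was -0.28 there, against -0.097, -0.16 and -0.11 in replicates 1 to 3. The same library was lowest for the polo and Aurora A subgroup (-0.33), for cytokinesis (-0.31) and for chromosome structure (-0.31). In the chromosomal passenger complex it was not, as replicate 1 had -0.22 and replicate 4 had -0.20, nor in the checkpoint genes, where replicate 2 had -0.21. Without replicate 4 the median log2 fold change of the members was -0.15, and 19 members were nominally lower. Rax-SmoCKO replicate 4 also held the most RNA of retinal ganglion cells, the earliest neurons of the retina, at 8971 CPM over 15 marker genes, where Rax-SmoCKO replicates 1 to 3 held 6533 to 7160 CPM and the controls 5719 to 6748. Of those markers 14 were above 0 and 12 were nominally higher, beside 4.8% of all genes, although none passed over all genes. In 5 of the 15 the groups did not overlap, with Rax-SmoCKO higher, beside 2.66% of all tested genes. Neurogenic precursor genes summed to 7380 to 8343 CPM in control and 7526 to 9821 in Rax-SmoCKO. The part of cell composition in the lower mitotic RNA was not tested.

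**Figure D4:**
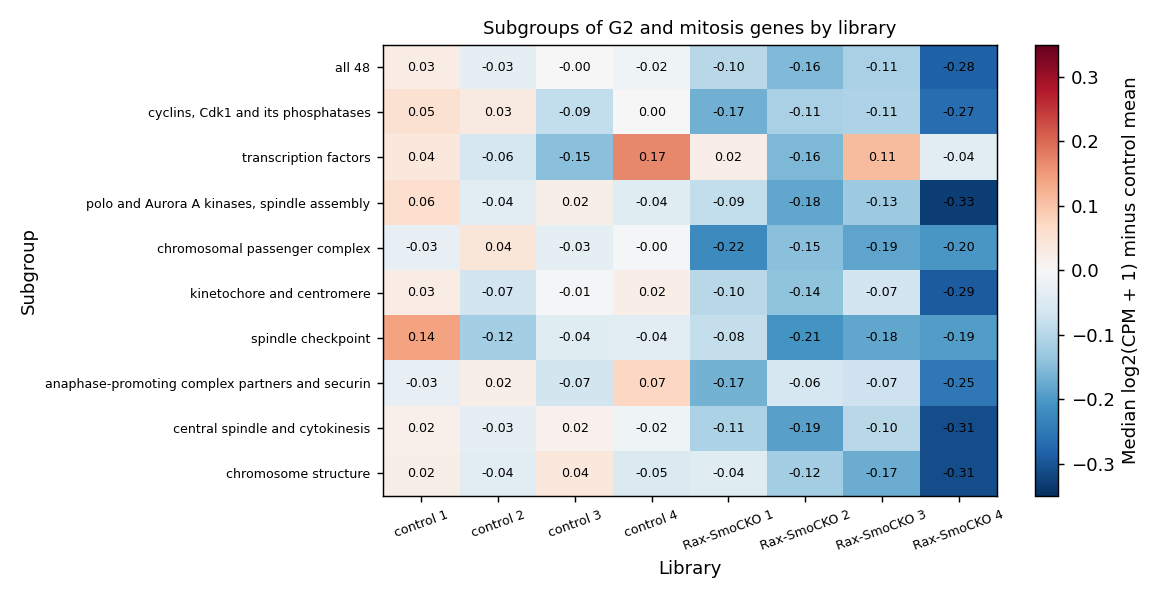
Median over the genes of each subgroup (rows) of log2(CPM + 1) minus its control mean, in each library (columns), with the value printed in each cell. Every subgroup but the transcription factors is below 0 in all 4 Rax-SmoCKO libraries, and replicate 4 has the lowest value over all 48 genes, -0.28.

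Genes of other cell types varied widely between libraries, and those of pigment epithelium, mesenchyme and endothelium lay above 0. Pigment epithelium genes (9, with Rpe65 at 0 counts in every library) summed to 65.2 to 285.0 CPM in control and 102.3 to 647.6 in Rax-SmoCKO, periocular mesenchyme genes (10) to 53.1 to 174.3 and 54.0 to 356.8, endothelial genes (6) to 191.4 to 208.3 and 196.0 to 276.2, and blood genes (9) to 913.0 to 1708 and 913.0 to 3814. Of the tested genes of these lists, 7 of 7 were above 0 for pigment epithelium (median 1.15, 3 nominally higher, sum 131.3% higher), 9 of 9 for mesenchyme (median 1.04, 0 nominally higher), 6 of 6 for endothelium (median 0.38, 1 nominally higher) and 7 of 8 for blood (median 0.58, 0 nominally higher), and none passed over all genes. Their part in the lower mitotic RNA was not tested. Kdr alone held 169.8 of the 200.9 CPM of the endothelial list in the control mean, and it was the nominally higher gene of that list. Lim2 was the lens gene at 0 in all libraries. Photoreceptor precursor genes (6) summed to 391.8 to 480.1 CPM in control and 419.8 to 578.7 in Rax-SmoCKO, and horizontal and amacrine genes (7) to 1110 to 1297 and 943.1 to 1252. The 1297 CPM came from control replicate 2, the library rich in lens RNA. There Prox1 of that list had 397.3 CPM, against 117.4 to 127.0 in the other controls. Without control replicate 2 and Rax-SmoCKO replicate 2, which hold the most lens RNA, the median log2 fold change of the mitotic members was -0.19 with 22 nominally lower, and without the libraries with Y-linked counts it was -0.20 with 20.

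Mitotic genes outside the list lay on the same side. In a list of 70 other mitosis genes, 66 had values below 0, with a median of -0.14, and 28 were nominally lower and 0 higher (40.0%, against 4.68% of all genes). That count depended on the fit: it was 14 in DESeq2 and with a covariate for Y-linked counts, and 15 to 19 in 5 of the 8 fits without a single library and in the fit without the Y-linked libraries. Sgo1, which protects centromeric cohesion, had 110.7 ± 8.18 CPM in control and 90.8 ± 2.79 CPM in Rax-SmoCKO (SD, n = 4 each), and its log2 fold change was -0.28 (SE 0.069, adjusted p = 0.213 in edgeR). The centromere genes Cenpq (-0.30, SE 0.072) and Cenpk (-0.28, SE 0.087) and the mitotic kinase gene Pbk (-0.23, SE 0.067) had the next smallest p. Above 0 were Kif18b (0.17), Kifc1 (0.13), Mad2l2 (0.047) and Cenpu (0.0079), none of them nominally higher.

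The lists of the anaphase-promoting complex, of DREAM and MuvB and of cohesin had medians nearer to 0, though single genes in them lay lower. Of 17 genes of the anaphase-promoting complex and its regulators 13 were below 0, with a median of -0.078, 1 nominally lower and 1 nominally higher (5.88% lower, near the 4.68% of all tested genes lower and 4.8% higher). The lower one, Fbxo5, encodes the Emi1 inhibitor of the complex (-0.26, SE 0.074), and the higher one was the subunit gene Anapc16 (0.19, SE 0.077). Of 10 genes of the DREAM and MuvB complexes, which as complexes act through the cell cycle homology region, 8 were below 0, with a median of -0.061. Nominally lower were 2 (20.0%, against 4.68% of all genes), E2f5 (-0.22, SE 0.075) and Rbl1 (-0.19, SE 0.069). Of 10 cohesin genes 8 were below 0, with a median of -0.068 and 1 of the 10 nominally lower, against the same 4.68%, Smc1a (-0.094, SE 0.038).
The 48 genes of DNA replication had the lowest median of these lists, -0.24, with 47 below 0 and 28 nominally lower (58.3%, against 4.68% of all tested genes). In 23 of them the groups did not overlap, all with Rax-SmoCKO lower (47.9%, against 3.03% of all tested genes and 33.3% of the mitotic members). They summed to 5171 to 5473 CPM in control and 4418 to 4710 CPM in Rax-SmoCKO, a difference of -14.3% beside the -10.1% of the mitotic genes. The helicase subunit Mcm7 (-0.30, SE 0.052, adjusted p = 0.064 in edgeR), the ribonucleotide reductase subunit Rrm2 (-0.32, SE 0.063), the histone chaperone subunit Chaf1a (-0.28, SE 0.061) and the replication initiation factor Mcm10 (-0.46, SE 0.099) led that list. The ratio of summed mitotic to summed replication RNA was 1.95 to 2.13 in control and 2.05 to 2.15 in Rax-SmoCKO, with means of 2.03 and 2.12. Rax-SmoCKO replicate 4 alone lay inside the control range. The other replicates lay above it, replicate 2 only just (2.136 against a control maximum of 2.134). Relative to the 12 progenitor markers the mitotic sum was 1.46 to 1.49 in control and 1.22 to 1.46 in Rax-SmoCKO, with replicate 2 alone inside the control range. The progenitor markers differed by -1.92% in sum, and 8 of the 12 were below 0, with a median of -0.0515. Of the 12, 2 were nominally lower, Six6 (-0.14, SE 0.052) and Hes1 (-0.16, SE 0.051), or 16.7% against 4.68% of all genes. Rax alone was nominally higher, at 318.2 CPM in control and 404.4 in Rax-SmoCKO on average (0.35, SE 0.090). Only Rax-SmoCKO carries the Rax-Cre BAC, whose part in the Rax counts, and so in this sum and ratio, was not tested.

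**Figure D5:**
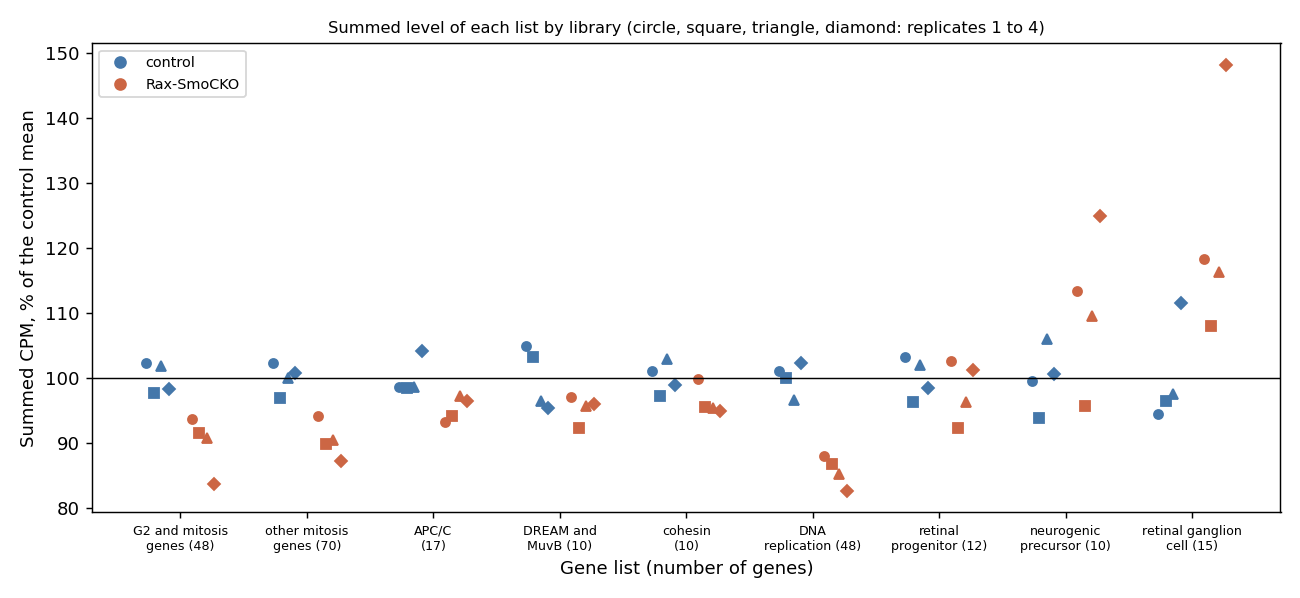
Summed CPM of each list as a percentage of its control mean (vertical axis), with 1 point per library and the number of genes in parentheses. The points of Rax-SmoCKO lie below all control points for the G2 and mitosis genes, the other mitosis genes, the anaphase-promoting complex (APC/C) and DNA replication, and overlap them for the remaining lists.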

How the data were processed

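Retinal RNA was made into libraries with the QuantSeq forward kit. The deposited values are whole-number counts per Ensembl gene, which the authors obtained from trimmed and aligned reads with featureCounts, and the mean count of each group, which was not used. STAR 2.7.0e, limma and 3 genome builds (GRCm38, mm10, GRCh38) stand in the submitters' processing notes. The collapse of molecular identifiers is not stated in the sources used here. The study's methods name 5 Rax-SmoCKO samples, of which 4 were used. Replicates of a group all differed beyond sampling noise (chi-square over degrees of freedom, 2.18 to 9.85).

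Counts of all 8 libraries were fitted with edgeR 4.0.16 in R 4.3.3 (TMM, quasi-likelihood, group alone). Genes needed 5 or more counts in 4 or more libraries, and p-values were adjusted by Benjamini-Hochberg over all of them. The fit was tested on simulated data. SE is the absolute log2 fold change over the square root of F. The methods also ask for an absolute log2 fold change over 1, which no member reached. Rows without a symbol held 0.094% of counts. The members, lists and tests were chosen with earlier results of these data known. Values per library are given for nominally lower members and for the 2 smallest p of a subgroup with fewer than 2, and for other lists up to 4 genes with the smallest p. Genes above 0 among the other mitosis genes were named after their values were seen. A marker of the planned progenitor list is not reported here. Alternatives were other scalings, DESeq2 1.42.0, limma-voom (limma 3.58.1), filters, covariates and left-out libraries. Gene positions came from GENCODE M21 and promoters from RefSeq. Figures were drawn with matplotlib 3.10.9.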

Additional observations from a re-analysis of the deposited data

Results flagged for a closer look

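In 5 of 96 groups of 4 values, 1 library lay far from the other 3, and chance gives about 1 in 20. Cdc25b had 52.6 CPM in control replicate 2 against 44.4 to 45.5 in the other controls, and Spc25 had 249.2 CPM in the same library against 264.5 to 266.3. Bub1b had 105.8 CPM in control replicate 1 against 86.2 to 88.9. In Rax-SmoCKO, Ccna2 had 222.8 CPM in replicate 3 against 210.0 to 211.9, and Kif11 had 144.0 CPM in replicate 4 against 173.2 to 178.5. None of the summed levels of the 9 subgroups or of all members was so marked.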

How the results depend on the processing

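The median log2 fold change of the members ran from -0.21 to -0.15 over all 18 alternatives, and 46 or 47 members stayed below 0 in each. The log2 ratio of the summed CPM was -0.15 as reported and ran from -0.17 to -0.12 over the 12 alternatives that change it. The number of nominally lower members was 26 as reported, 23 with library size alone, 20 in DESeq2, and 14 to 26 with 1 library left out, where 14 came without control replicate 1. With no filter 1 member, Nuf2, passed over all genes (adjusted p = 0.0136 in edgeR), and with 1 library left out 0 members did. The share of all genes called without the filter was not counted. For the other mitosis genes the count was 28 as reported, 14 in DESeq2, 14 with a covariate for Y-linked counts, 15 without the libraries with Y-linked counts, and 16 to 27 with 1 library left out, the lower ones without control replicates 1 or 4 or Rax-SmoCKO replicates 2 or 4 (18, 17, 18 and 16). The cause was not tested. Cdc25b changed sign to 0.0079 without the libraries with the most lens counts, and ran from -0.088 to 0.016 with 1 library left out. Pttg1 ran from -0.051 to 0.0037. The sign changed in 4 of 864 fits of single members. With the replicate number as a block, 26 members were nominally lower, 0 passed over all genes and the median was -0.18. The numbers share no stated animal or batch, and same-numbered libraries had correlations of -0.056 to 0.24 between their deviations, so the block is not a pairing.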
